A study of Homo sapiens with 8 samples.

Results

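This account covers 10 genes of the transforming growth factor beta (TGF-beta) pathway among the 58870 gene rows of an RNA sequencing table: the ligands TGFB1 and TGFB2, the receptors TGFBR1 and TGFBR2, the signal carriers SMAD2, SMAD3 and SMAD4, and the feedback genes SMAD7, SKIL and PMEPA1. They were chosen by name, with earlier results of these data known, and 9 were found by their symbol. TGFB1 was matched by its identifier, ENSG00000105329.9, which the table lists under the symbol AC011462.1; GENCODE release 29 gives that identifier to TGFB1, and the name AC011462.1 to another gene that overlaps it on the opposite strand. The row of that other gene's own identifier is at 0 counts in every library, and the identifier was followed. All 10 passed the filter on low counts and were tested.

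The RNA came from Panc 10.05, an established human pancreatic ductal adenocarcinoma line. There were 4 libraries of control cells and 4 labelled ELAPOR1 overexpression. ELAPOR1 is a transmembrane protein of the endosome and lysosome system. The labels give the line, but not how ELAPOR1 was overexpressed or what the control cells carried. Nor do they say whether either population is a clone, or whether replicates were separate cultures. The p-values therefore measure only the spread between these libraries, which may be technical.

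Library totals ranged from 13765509 to 18128757 counts. ELAPOR1 (listed as KIAA1324) had between 1 and 4 counts per control library and between 5910 and 7368 per ELAPOR1 library, so every library matched its label. All 7 epithelial markers examined were present, summing to 12009 to 13280 CPM (counts per 1000000) in control and 11236 to 11579 CPM in ELAPOR1 libraries. KRT18, KRT8 and MUC1 were called lower, KRT7, KRT19 and CDH1 were called higher, and EPCAM was not called. Of 10 markers of other cell types, COL1A2, DCN, LUM, INS and PRSS1 had no count in any library, and the 10 together summed to 4.13 to 5.43 CPM in control and 3.74 to 4.54 CPM in ELAPOR1 libraries.

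TGF-beta ligands are secreted in a latent complex and, once freed, bind the receptor TGFBR2, which recruits and phosphorylates TGFBR1. TGFBR1 then phosphorylates SMAD2 and SMAD3, which join SMAD4 and enter the nucleus to switch genes on or off. SMAD7, SKIL and PMEPA1 are themselves induced by the pathway and restrain it. In pancreatic cancer the pathway is known both for arresting growth and for promoting a mesenchymal state, and SMAD4 is often lost.

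The comparison asked how these genes differ between ELAPOR1 and control cells. The 3 feedback genes rose in ELAPOR1 libraries, PMEPA1 by 3.50-fold, SMAD7 by 49.7% and SKIL by 1.32-fold. SMAD2 fell by 13.9%, and SMAD4 fell by 7.95%. The ligands, both receptors and SMAD3 did not pass the threshold. In all, 5 of the 10 genes were called at an edgeR adjusted p under 0.05, 3 higher and 2 lower. Of all tested genes 44.7% were called, 22.6% higher and 22.1% lower (3127 and 3066 genes; 3490 and 2736 with total count scaling, 2967 and 3199 with upper-quartile scaling), so the number of calls among the 10 was near the background. The median log2 fold change of the 10 was -0.06, against 0.00 over all tested genes. In bulk RNA, a change in the number of cells expressing a gene and a change in RNA per cell cannot be told apart.

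**Figure D1:**
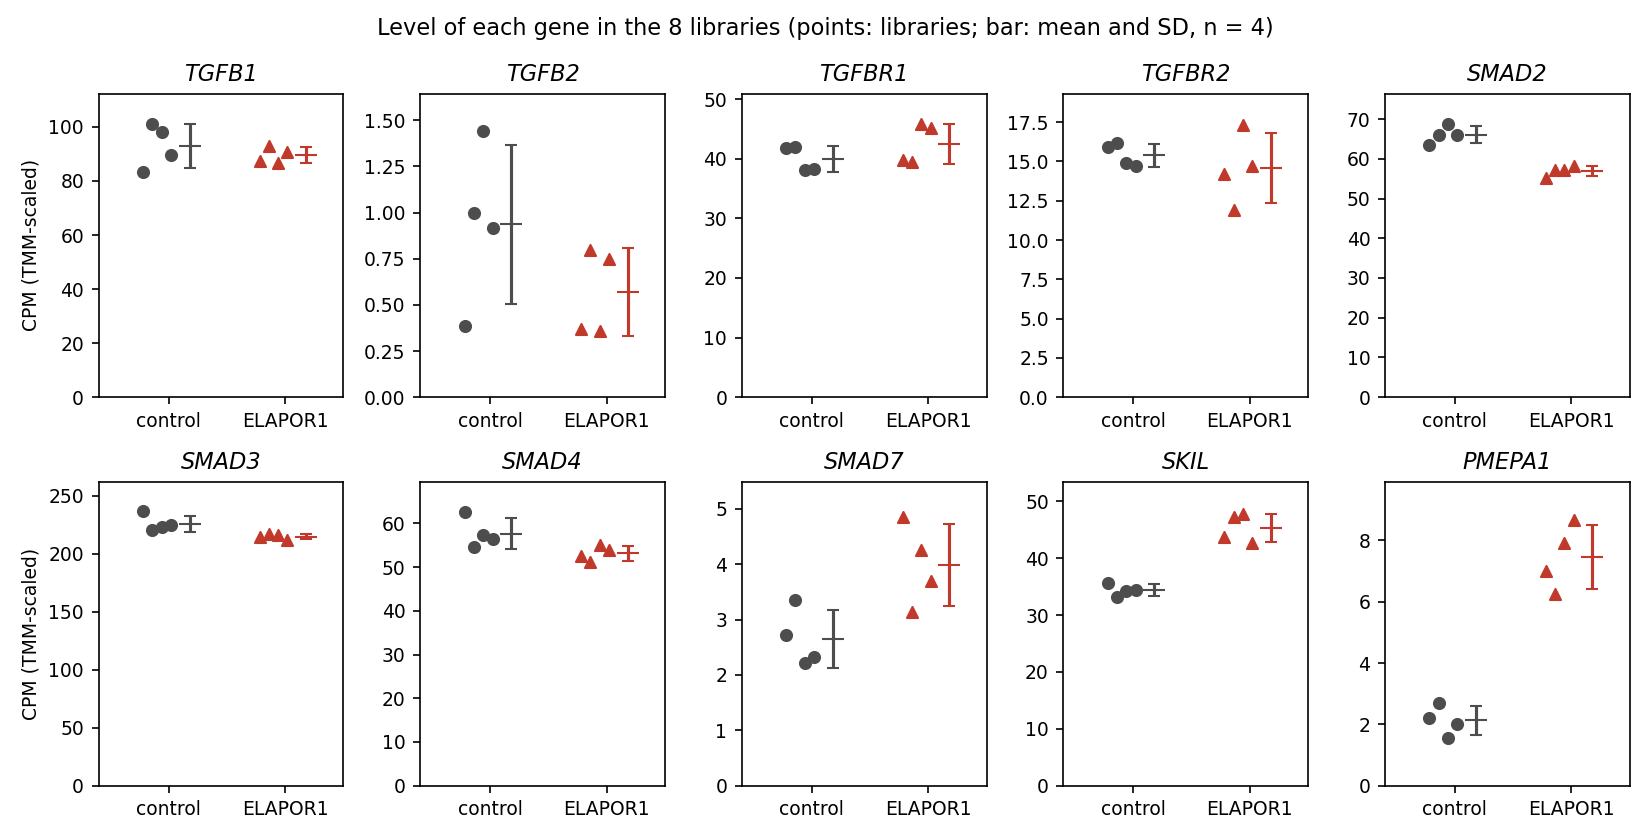
Level of each of the 10 genes in CPM (linear axis from 0) in the 4 control (circles) and 4 ELAPOR1 (triangles) libraries, with mean and SD beside the points. PMEPA1 and SKIL are higher in every ELAPOR1 library than in any control library, and SMAD2 and SMAD3 are lower.

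Among the ligands, TGFB1 was much the more abundant. TGFB1 (chromosome 19, 41301587 to 41353911, minus strand, GRCh38) stood at 83.3, 101, 98.2 and 89.6 CPM in control and 87.5, 93.0, 86.6 and 90.7 CPM in ELAPOR1 libraries. The groups overlapped, with all 4 ELAPOR1 values inside the control range. The fold was 0.962 (95% interval 0.897 to 1.03, edgeR adjusted p = 0.375). The gene's span also holds CCDC97 on the opposite strand, which rose from 41.3 ± 1.81 to 51.2 ± 0.990 CPM (SD, n = 4 each, edgeR adjusted p = 5.0e-06). The use of strand is not stated, so reads in any shared stretch cannot be told apart.

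TGFB2, the second ligand, was near the limit of detection, with 7, 17, 24 and 15 counts in control and 6, 12, 5 and 13 counts in ELAPOR1 libraries. The groups overlapped, and both held libraries under 10 counts. Its log2 fold change was -0.69 with a 95% interval from -1.51 to 0.13 (edgeR adjusted p = 0.170). The interval is wide and includes 0, so both no change and a sizeable fall remained possible. Leaving out control replicate 1, the lowest of that group, gave -0.96 (edgeR adjusted p = 0.0477). TGFB2-OT1, a noncoding transcript overlapping the gene on the same strand, had at most 5 counts in any library. TGFB3, the remaining TGF-beta isoform, stood at 0.911 ± 0.175 CPM in control and 0.830 ± 0.291 CPM with ELAPOR1 (SD, n = 4 each, edgeR adjusted p = 0.819).

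The receptor TGFBR1 (chromosome 9, 99104038 to 99154192) stood at 41.8, 41.9, 38.1 and 38.2 CPM in control and 39.7, 39.4, 45.8 and 45.1 CPM in ELAPOR1 libraries. Both groups split into a lower and a higher pair, and they overlapped. The fold was 1.06 (95% interval 0.977 to 1.15, edgeR adjusted p = 0.243). TGFBR2 (chromosome 3, 30606502 to 30694142), the receptor that binds the ligand, stood at 15.9, 16.2, 14.9 and 14.7 CPM in control and 14.2, 11.9, 17.3 and 14.7 CPM in ELAPOR1 libraries. ELAPOR1 libraries held both its lowest and its highest value. The fold was 0.943 (95% interval 0.828 to 1.07, edgeR adjusted p = 0.485). Neither receptor passed the threshold under any alternative.

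The receptor-regulated SMADs moved little. SMAD2 (chromosome 18, 47808957 to 47931146) stood at 63.4, 66.1, 68.8 and 66.1 CPM in control and 55.1, 57.2, 57.1 and 58.3 CPM in ELAPOR1 libraries. Every ELAPOR1 library was below every control library. SMAD2 fell by 0.22 on the log2 scale (edgeR adjusted p = 1.8e-04, SE 0.0451) and was called under all 17 alternative settings. Groups that did not overlap were found in 4 of the 10 genes and in 39.2% of all tested genes (20.0% higher and 19.3% lower in ELAPOR1 libraries).

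SMAD3 (chromosome 15, 67063763 to 67195195), the partner of SMAD2, was the most counted of the 10, at 237, 221, 223 and 225 CPM in control and 215, 217, 216 and 212 CPM in ELAPOR1 libraries. The groups did not overlap, but the gap between them was small, and control replicate 1 stood above the other 3 control libraries. The fold was 0.950 (95% interval 0.909 to 0.993), and the gene missed the threshold (edgeR adjusted p = 0.0543). It passed under 4 of 17 alternatives, with log2 fold changes from -0.08 to -0.05 over all of them. The unadjusted interval excludes no change, whereas the adjusted p takes all tested genes into account.

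SMAD4 (chromosome 18, 51028394 to 51085045), the common partner, stood at 62.6, 54.6, 57.4 and 56.4 CPM in control and 52.5, 51.2, 55.1 and 53.9 CPM in ELAPOR1 libraries. The groups overlapped, because ELAPOR1 replicate 3 exceeded the lowest control library. SMAD4 fell by 0.12 on the log2 scale (edgeR adjusted p = 0.0483, SE 0.0496). The call is marginal: it was lost under 11 of 17 alternatives, with an edgeR adjusted p of 0.170 and a log2 fold change of -0.08 without control replicate 1. AC091551.1, a gene overlapping it on the same strand, had 2 to 10 counts.

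SMAD2, SMAD4 and SMAD7 lie within a few megabases of each other on the long arm of chromosome 18. For each gene, the 20 nearest tested genes averaging 5 CPM or more (10 on each side, leaving out the 10 genes described) were examined after the results had been seen. The 19 around SMAD2 had a median log2 fold change of -0.08, 14 of them below 0. The 19 around SMAD4 had a median of 0.03, 9 of them below 0. Around SMAD7, which rose, the 18 neighbours had a median of -0.07. They span 42.0 to 50.9 Mb, which overlaps the 36.8 to 50.4 Mb of the neighbours of SMAD2. For the described genes on other chromosomes, the medians of the neighbours ran from -0.15 around SMAD3 to 0.10 around TGFB2. The part of neighbouring genes in the changes of the genes described was not tested.

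**Figure D2:**
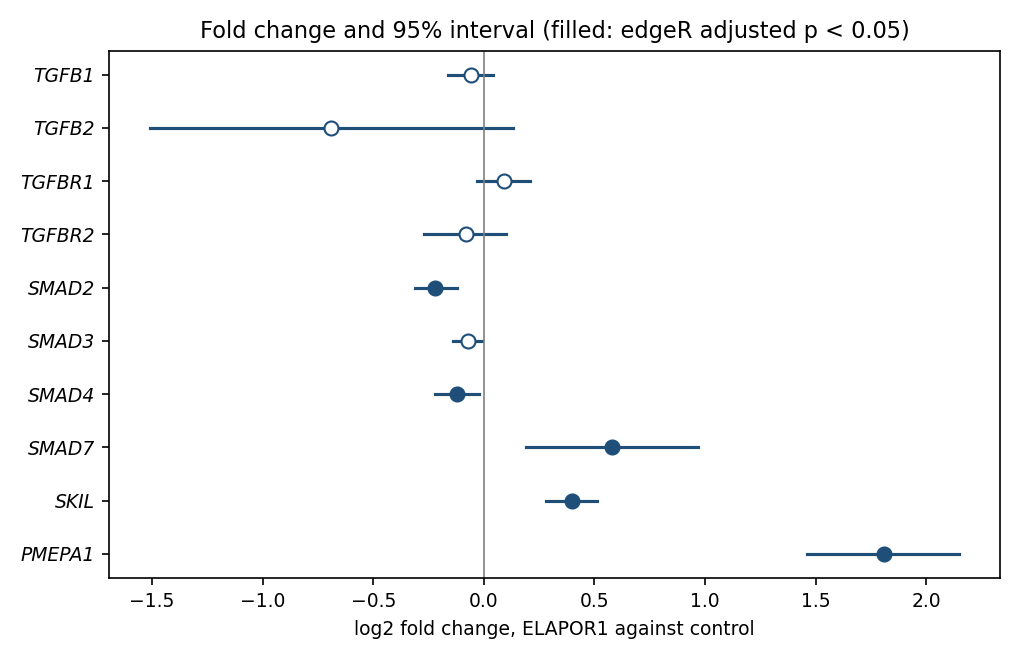
Log2 fold change of each gene in ELAPOR1 against control (point) with its 95% interval (line), filled where the edgeR adjusted p was under 0.05. PMEPA1, SMAD7 and SKIL lie to the right of 0 and SMAD2 and SMAD4 to the left; the interval of TGFB2 is the widest.

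The clearest differences were among the genes that the pathway induces to restrain itself. PMEPA1 (chromosome 20, 57648392 to 57711536, minus strand) encodes a membrane protein that binds receptor-regulated SMADs and keeps them from the receptor. It stood at 2.22, 2.71, 1.56 and 2.01 CPM in control and 7.00, 6.25, 7.92 and 8.65 CPM in ELAPOR1 libraries, from 26 to 46 and from 94 to 150 counts. The lowest ELAPOR1 library was above the highest control library by a wide margin. The log2 fold change was 1.81 (edgeR adjusted p = 8.0e-11, SE 0.168), the 50th highest of 13860 tested genes. It stayed between 1.69 and 1.94 and was called under all 17 alternatives. The antisense RNA NKILA, which overlaps the start of PMEPA1, had 3 to 4 counts in control and 6 to 10 counts in ELAPOR1 libraries, too few to be tested.

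SKIL (chromosome 3, 170357678 to 170396835, plus strand) encodes SnoN, a corepressor that binds SMAD complexes on DNA. It stood at 35.6, 33.2, 34.2 and 34.4 CPM in control and 43.7, 47.2, 47.7 and 42.6 CPM in ELAPOR1 libraries. The groups did not overlap, and the control libraries lay close together. SKIL rose by 0.40 on the log2 scale (edgeR adjusted p = 3.7e-07, SE 0.0554), and was called under all 17 alternatives. Its relative SKI, also a SMAD corepressor, was at 34.4 ± 0.491 CPM in control and 36.1 ± 2.75 CPM with ELAPOR1 (SD, n = 4 each, edgeR adjusted p = 0.332). The difference between SKIL and SKI in their response was not tested.

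SMAD7 (chromosome 18, 48919853 to 48952052, minus strand), the inhibitory SMAD that blocks TGFBR1, was weakly expressed. It stood at 2.72, 3.36, 2.22 and 2.32 CPM in control and 4.85, 3.13, 4.25 and 3.69 CPM in ELAPOR1 libraries, from 37 to 57 and from 47 to 79 counts. The groups overlapped, since ELAPOR1 replicate 2 lay below control replicate 2. SMAD7 rose by 0.58 on the log2 scale (edgeR adjusted p = 0.0130, SE 0.192). Without ELAPOR1 replicate 1, its highest library, the value was 0.47 and the call was lost (edgeR adjusted p = 0.0766). SMAD6, the inhibitory SMAD of the bone morphogenetic protein (BMP) branch, was at 2.15 ± 0.913 CPM in control and 1.35 ± 0.499 CPM with ELAPOR1 (SD, n = 4 each), with a log2 fold change of -0.67 (edgeR adjusted p = 0.0651). Without control replicate 1, its highest library, the value was -0.35 (edgeR adjusted p = 0.391).

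Because SMAD7, SKIL and PMEPA1 rose together, the letters before their transcription starts were read from RefSeq (GRCh38.p14). SMAD proteins bind the short motif CAGAC, which reads GTCTG on the other strand. The palindrome GTCTAGAC carries its AGAC core once on each strand. RefSeq windows matched all 10 genes, with 28 starts in all. CAGAC or GTCTG was found in the 250 bases before 12 of these 28 starts, and in 38% of all 35116 windows of the same length. These starts belong to 6 of the 10 genes. The 6 are SMAD7, SKIL and PMEPA1, and also TGFB2, TGFBR1 and SMAD3, which were not called. Of all 27305 genes with RefSeq windows, 42.8% have at least 1 such window, and a gene with more starts has more windows. GTCTAGAC was found in none of the 28 and in 0.182% of all windows. One window with the motif is shown for each of SMAD7, SKIL and PMEPA1, 5′ to 3′ on the strand of the gene. Bases inside an annotated exon of that gene are left out. Capitals mark CAGAC or GTCTG. The first is chr18:48949334-48949583, minus strand, in an intron of SMAD7 as annotated. The second is chr3:170357465-170357677, plus strand. The third is chr20:57710590-57710827, minus strand, which NKILA overlaps and which lies within the annotated span of PMEPA1. The window before the outermost PMEPA1 start, chr20:57711473-57711722, holds no match. A match is a description of the letters and shows no binding.
SMAD7: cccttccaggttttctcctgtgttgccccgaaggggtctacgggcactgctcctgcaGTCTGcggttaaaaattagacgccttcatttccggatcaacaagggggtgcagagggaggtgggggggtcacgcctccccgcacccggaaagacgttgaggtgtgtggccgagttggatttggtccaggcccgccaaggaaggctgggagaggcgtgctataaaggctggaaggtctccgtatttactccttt
SKIL: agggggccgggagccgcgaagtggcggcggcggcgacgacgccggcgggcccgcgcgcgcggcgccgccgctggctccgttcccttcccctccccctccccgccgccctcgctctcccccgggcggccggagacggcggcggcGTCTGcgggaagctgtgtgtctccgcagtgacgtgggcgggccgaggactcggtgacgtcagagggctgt
PMEPA1: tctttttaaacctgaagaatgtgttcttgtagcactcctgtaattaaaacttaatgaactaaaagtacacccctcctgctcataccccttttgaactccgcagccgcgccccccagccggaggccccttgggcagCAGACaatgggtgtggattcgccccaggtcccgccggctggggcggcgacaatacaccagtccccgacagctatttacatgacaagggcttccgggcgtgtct
Each window shown holds 1 match. The motif starts 193 bases before the RefSeq start in SMAD7, 107 in SKIL and 115 in PMEPA1.

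To compare levels between genes, counts were divided by exon length and scaled to TPM (transcripts per 1000000). In control libraries TGFB1 was highest at 105 ± 8.44 TPM (SD, n = 4), followed by SMAD3 at 91.2 ± 3.93 TPM, and their ranges overlapped. TGFBR1 followed at 21.4 ± 1.29 TPM, SKIL at 16.2 ± 0.655 TPM and SMAD4 at 16.1 ± 1.17 TPM, the last pair again overlapping. TGFBR2 stood at 12.0 ± 0.624 TPM and SMAD2 at 6.67 ± 0.189 TPM. SMAD7 at 1.93 ± 0.375 TPM and PMEPA1 at 1.39 ± 0.310 TPM overlapped, and TGFB2 was lowest at 0.665 ± 0.305 TPM. The place of SMAD2 depends on its length: its annotated exons cover 36366 bases, and with a 10445-base transcript of it and the longest transcript for all other genes its level was 16.8 TPM. With the longest transcript of each gene, SMAD3 (96.5 TPM) stood above TGFB1 (89.4 TPM).

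In ELAPOR1 libraries the order changed at the feedback genes. PMEPA1 reached 4.96 ± 0.694 TPM and SMAD7 2.96 ± 0.540 TPM (SD, n = 4 each), and their ranges, 4.18 to 5.76 TPM and 2.33 to 3.59 TPM, no longer overlapped. SKIL at 21.8 ± 1.25 TPM overlapped TGFBR1 at 23.2 ± 1.86 TPM.

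**Figure D3:**
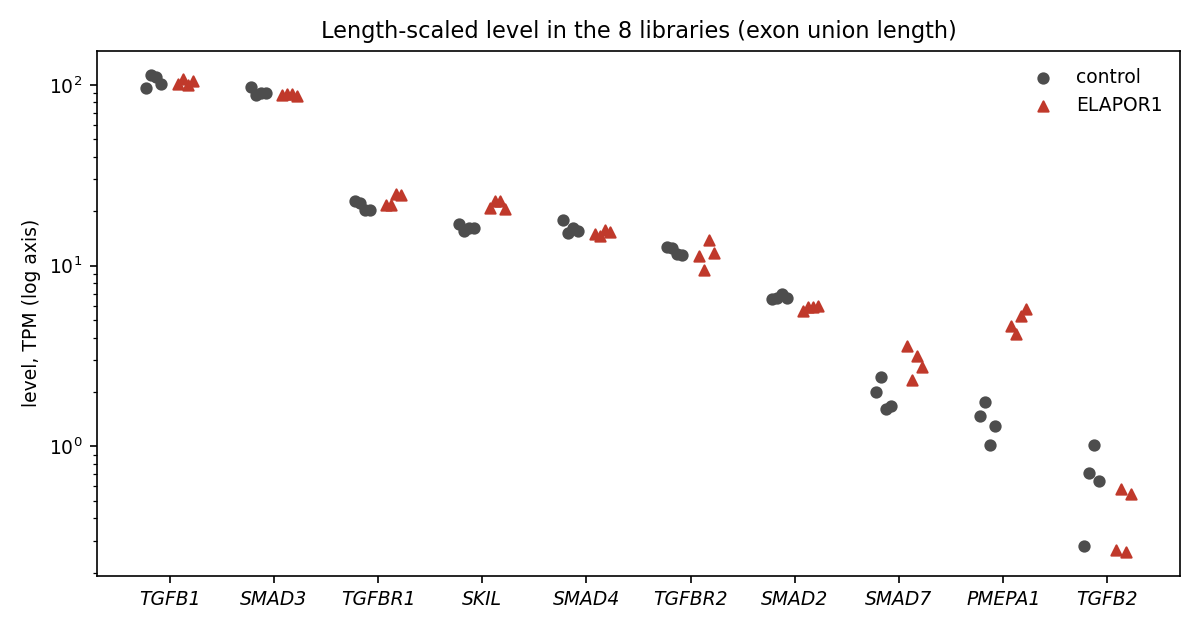
Level in TPM (log axis) of the 10 genes in each control (circles) and ELAPOR1 (triangles) library, ordered by the control mean. TGFB1 and SMAD3 lie near 100 TPM and TGFB2 at 1.02 TPM or less; PMEPA1 moves from below SMAD7 in control to above it in ELAPOR1 libraries.

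Ratios of a pair of genes within a library do not depend on the scaling between libraries and are given as log2 values without a test. They were taken from the TPM by union of exons, so their level, though not the difference between the groups, depends on the lengths used, most of all for SMAD2. The ratio of TGFB2 to TGFB1 was -7.45 ± 0.695 in control and -8.07 ± 0.583 with ELAPOR1 (SD, n = 4 each), with wide overlap. TGFBR1 to TGFBR2 was 0.84 ± 0.0173 and 1.01 ± 0.144; the groups only just did not overlap, the highest control and lowest ELAPOR1 libraries both reading 0.86. SMAD3 to SMAD2 was 3.77 ± 0.0878 and 3.92 ± 0.0405, with overlap at control replicate 1 (3.90). SMAD7, the inhibitor, against SMAD4, the common partner, was at -3.08 ± 0.302 and -2.38 ± 0.254; control replicate 2 (-2.64) lay just above the lowest ELAPOR1 library (-2.65).

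The other genes of the pathway were followed in 4 lists chosen by name, of which 65 of 89 genes passed the filter. Called genes numbered 40, with 24 higher and 16 lower. The share called was 61.5%, against 44.7% of all tested genes. It was 80.0% for TGF-beta targets, 57.1% for other ligands and latency, 54.5% for other SMADs and modulators and 44.4% for other receptors. The lists were chosen with earlier results of these data known, so these shares are descriptive.

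Among other ligands and the genes that store or free them, 14 of 23 were tested and 8 called, 4 higher and 4 lower, with a median log2 fold change of -0.05. THBS1, thrombospondin, which can free TGF-beta from its latent complex, rose from 128 ± 6.30 to 229 ± 5.35 CPM (SD, n = 4 each, log2 fold change 0.84, edgeR adjusted p = 1.1e-19). ITGB6, the integrin subunit that activates latent TGF-beta on epithelial cells, rose from 5.15 ± 0.590 to 8.43 ± 1.14 CPM (0.70, edgeR adjusted p = 3.9e-05). Of the genes named as latent TGF-beta binding proteins, LTBP3 fell by 0.45, LTBP4 by 0.20 and LTBP2 by 0.19 on the log2 scale (edgeR adjusted p = 2.2e-09, 0.00242 and 0.0116). LTBP1, named after its values were seen, was not called (4.13 ± 0.845 and 3.38 ± 0.466 CPM, SD, n = 4 each, edgeR adjusted p = 0.199).

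Of the other receptors, 9 of 12 were tested and 4 called, 2 higher and 2 lower, with a median of -0.07. TGFBR3, betaglycan, the coreceptor that presents TGF-beta to TGFBR2, fell from 21.9 ± 1.66 to 17.8 ± 1.17 CPM (SD, n = 4 each, log2 fold change -0.30, edgeR adjusted p = 0.00166). ACVR2B, an activin receptor, fell by 0.35 (edgeR adjusted p = 3.0e-04). BMPR2, the BMP counterpart of TGFBR2, rose by 0.26 (edgeR adjusted p = 4.5e-05), and ACVR1C, a type I receptor for activins and nodal, by 0.41 (edgeR adjusted p = 0.0195). The call of ACVR1C was lost without control replicate 2 (0.35, edgeR adjusted p = 0.0673) and without ELAPOR1 replicate 2 (0.36, edgeR adjusted p = 0.0721).

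Of the other SMADs and modulators, 22 of 28 were tested and 12 called, 7 higher and 5 lower, with a median of -0.01. SMAD5, of the BMP branch, fell by 0.18 (edgeR adjusted p = 0.00161), while SMAD1 was not called (log2 fold change -0.12, edgeR adjusted p = 0.335). The corepressors TGIF1 and TGIF2 fell by 0.47 and 0.22 (edgeR adjusted p = 1.1e-10 and 0.00915). TGIF1 lies on the short arm of chromosome 18, where its 20 tested neighbours had a median log2 fold change of -0.26, 18 of them below 0; their part in its value was not tested. PPM1A, a phosphatase of SMAD2 and SMAD3, fell by 0.19 (edgeR adjusted p = 1.9e-04). The largest called rises in this list were FSTL3, a secreted activin binder, at 0.38 (edgeR adjusted p = 0.00496), the coactivator CREBBP at 0.28 (edgeR adjusted p = 4.8e-06) and the ubiquitin ligase SMURF1 at 0.23 (edgeR adjusted p = 8.2e-06).

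Of the genes known as TGF-beta targets, 20 of 26 were tested and 16 called, 11 higher and 5 lower, with a median log2 fold change of 0.17 against 0.00 over all tested genes. CDKN1A, the inhibitor of cell cycle kinases, rose by 0.80 (edgeR adjusted p = 5.9e-11), the mesenchymal transcription factor SNAI2 by 0.65 (edgeR adjusted p = 6.2e-05) and CCN2, a matrix-associated signalling protein, by 0.61 (edgeR adjusted p = 3.2e-05).

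Not every target moved the same way. The repressor BHLHE40 fell from 56.1 ± 1.81 to 33.3 ± 1.65 CPM (SD, n = 4 each, log2 fold change -0.75, edgeR adjusted p = 8.4e-14). TPM1, a tropomyosin of actin filaments, fell by 0.38 (edgeR adjusted p = 6.4e-08). CDKN2B, an inhibitor of cyclin-dependent kinases that TGF-beta induces in epithelial cells, fell by 0.24 (edgeR adjusted p = 0.00105).

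**Figure D4:**
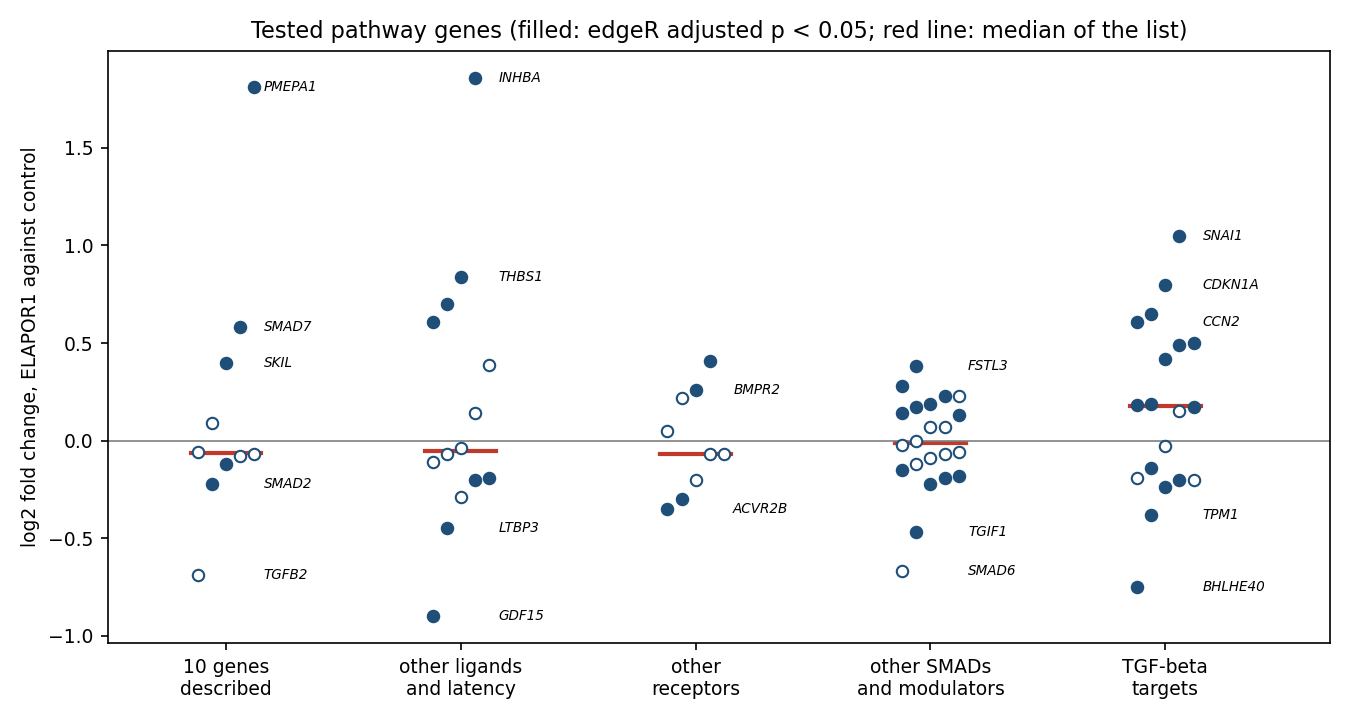
Log2 fold change (ELAPOR1 against control) of the tested genes in the 10 described and the 4 further lists, with 1 gene not drawn; filled points passed the edgeR threshold and red lines are medians of the whole lists. Of the genes drawn, PMEPA1 (1.81) and INHBA (1.86) are the highest, while most receptors and SMADs lie within 0.5 of 0.

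By similarity of profile, the genes outside the lists nearest to PMEPA1 among 10636 genes averaging 5 CPM or more were TNFAIP3, ANKRD1 and KLK6. The measure was the root mean square difference of log2(CPM + 1), centred on each gene's mean, over the 8 libraries: 0.145 for TNFAIP3, 0.158 for ANKRD1 and 0.200 for KLK6. TNFAIP3 went from 6.59 ± 0.872 to 18.3 ± 0.725 CPM (SD, n = 4 each). The measure is set mainly by the difference between the groups, and the added 1 CPM shrinks that difference for a weakly expressed gene such as PMEPA1. The log2 fold changes of TNFAIP3, ANKRD1 and KLK6 were 1.47, 1.39 and 1.37, smaller than the 1.81 of PMEPA1.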

How the data were processed

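The authors deposited a single table of expected counts per gene, which are estimated counts that need not be whole, with no scaling between libraries; the unit is read from the table's name and values. Per the submitters' processing notes, cutadapt, STAR, RSEM and DESeq2 were used with the build hg38; versions, annotation release and use of strand are not given in the sources used here. No gene-less rows were present.

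Counts were rounded to whole numbers and fitted across 13860 genes with edgeR 4.0.16 in R 4.3.3 (filterByExpr, TMM, robust quasi-likelihood test, two-sided, no covariate). Benjamini-Hochberg adjustment covered every tested gene, with calls made at an adjusted p under 0.05. Standard errors are the size of the log2 fold change divided by the square root of F. CPM is per 1000000 counts, scaled by TMM. Levels between genes are TPM from the union of annotated exons in GENCODE release 29. Motifs were searched on both strands of RefSeq promoter windows (GRCh38.p14).

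The 10 genes and the 4 further pathway lists were chosen with earlier results of these data known. From each further list, the 3 largest called rises and 3 largest called falls with a mean of at least 5 CPM are named, plus TGFB3, SKI, SMAD1, SMAD5, SMAD6, TGFBR3 and CCN2 whatever their result; 1 further gene of the rule is counted in its list but not reported here. The procedure was tested on simulated data in which far fewer genes changed than were called here, so that test does not cover so broad a change. Alternatives covered 3 other scalings, the DESeq2 1.42.0 Wald test, limma-voom (limma 3.58.1), other filters and thresholds, the replicate number as a block, and each library left out in turn. The labels do not say that samples of the same number belong together, so the main fit did not pair them. Libraries of one group differed by more than sampling noise (chi-square per degree of freedom 1.93 to 6.10 over 12 pairs), so none was treated as a duplicate. The highest values, 3.41, 3.59 and 6.10, were those of control replicate 1 with the other control libraries. Pairs of ELAPOR1 libraries lay between 1.93 and 2.19.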

Additional observations from a re-analysis of the deposited data

Results flagged for a closer look

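For 2 of 84 sets of 4 libraries examined, a single library stood apart by most of the set's range. Control replicate 1 had 53.4 CPM of BMPR2, while the other control libraries held 47.0 to 48.0 CPM, a gap of 0.835 of the range. ELAPOR1 replicate 2 had 50.5 CPM of TGIF1, against 48.4 to 48.7 CPM in the rest of its group, a gap of 0.839 of the range. Chance alone flags about 5% of such sets. BMPR2 went from 48.9 ± 3.06 to 58.7 ± 0.798 CPM and TGIF1 from 68.2 ± 0.723 to 49.1 ± 0.969 CPM (SD, n = 4 each), and neither pair of groups overlapped.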

How the results depend on the processing

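No call turned to the other direction. Of 643 values of named genes under alternatives, 614 kept their side of the threshold, 17 lost the call and 12 gained it. PMEPA1, SKIL and SMAD2 were called under all 17 alternatives. The calls among the 10 genes numbered 5. At an edgeR adjusted p under 0.01 they numbered 3, against 4682 of all 13860 tested genes. Leaving out 1 library gave 3 to 6 calls among the 10, the lowest without ELAPOR1 replicate 1, where SMAD7 and SMAD4 were lost. The calls among all genes ranged from 5557 to 6316 with 1 library left out, and those in the 4 further lists from 35 to 42. SMAD3 passed with DESeq2 size factors, upper-quartile scaling, at least 10 counts in every library, and without control replicate 4; TGFB1 passed without control replicate 1 (-0.11, edgeR adjusted p = 0.0242). TGFB2 passed without control replicate 1, and SMAD6 under 6 alternatives. No scaling moved the median of all genes by more than 0.022 on the log2 scale. With the longest transcript of each gene in place of the union of exons, control levels were 89.4 TPM for TGFB1, 16.3 for TGFBR1, 8.87 for TGFBR2, 5.09 for SMAD2, 96.5 for SMAD3, 17.5 for SMAD4 and 12.7 for SKIL; with a shorter transcript, chosen after seeing the data, SMAD2 was at 16.8 TPM. The lengths set these values. The filter of at least 10 counts in every library left out TGFB2.

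With the replicate number as a block, 5926 genes and 4 of the 10 were called, SMAD4 falling out (edgeR adjusted p = 0.0610). No shared effect of the number was seen: deviations of same-numbered libraries from their group means correlated at -0.021 to 0.033. Of 8 libraries, 2 correlated best with their own number. Such values cannot show whether same-numbered samples were handled together.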

Other observations

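INHBA, which encodes the subunit of activin A, a ligand that also signals through SMAD2 and SMAD3, was too weakly expressed for the rule on named genes and was picked out after its values were seen. It stood at 0.388, 0.649, 0.959 and 0.549 CPM in control and 2.15, 2.46, 2.38 and 2.31 CPM in ELAPOR1 libraries, from 7 to 16 and from 33 to 40 counts. The groups did not overlap, and its log2 fold change of 1.86 (edgeR adjusted p = 3.5e-06, SE 0.296) was slightly above that of PMEPA1. GDF15, another secreted member of the superfamily, was lower, at 2.84 ± 0.944 CPM in control and 1.51 ± 0.454 CPM in ELAPOR1 libraries (SD, n = 4 each, log2 fold change -0.90, edgeR adjusted p = 0.00442).

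TGFB1I1, a focal adhesion protein named for its induction by TGF-beta, is in none of the lists and was also picked out after its values were seen. It had 1 to 4 counts in control and 12 to 17 counts in ELAPOR1 libraries (log2 fold change 2.55, edgeR adjusted p = 6.2e-05, SE 0.491). It lies on the short arm of chromosome 16; its 20 nearest tested genes, which span 31.1 to 46.9 Mb and so reach into the long arm, had a median log2 fold change of 0.00, with 10 of them below 0. SNAI1, a target below 5 CPM, was likewise picked out after its values were seen. SNAI1 rose from 1.80 ± 0.361 to 3.72 ± 0.422 CPM (SD, n = 4 each, log2 fold change 1.05, edgeR adjusted p = 7.8e-05). The other tested targets below 5 CPM, COL1A1 and TAGLN, were not called (log2 fold change -0.20 and -0.19, edgeR adjusted p = 0.422 and 0.452).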
